A study of Mus musculus with 4 samples.

Results

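Oxidative phosphorylation genes were taken from the single-cell count table by their symbols. The rule was a start of Nduf, Uqcr, Cox4, Cox5, Cox6, Cox7, Cox8 or Atp5, plus the protein-coding genes of the mitochondrial genome that begin mt-Nd, mt-Co, mt-Cytb or mt-Atp. It found 99 of the 17117 genes in the table. Of these, 86 are encoded in the nucleus and 13 in mitochondrial DNA. The nuclear genes comprise 75 subunits (36 of complex I, 8 of complex III, 16 of complex IV and 15 of complex V), 7 complex I assembly factors of the Ndufaf series and 4 related genes that are not counted as subunits (Ndufa4l2, Cox7a2l, Atp5s and Atp5sl). Ndufa4 is counted here with complex IV, where its protein is found. The mitochondrial genes comprise 7 subunits of complex I, 1 of complex III, 3 of complex IV and 2 of complex V.

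Oxidative phosphorylation is the last stage of respiration in the inner mitochondrial membrane. Complex I takes electrons from NADH, complex III passes them to cytochrome c and complex IV passes them to oxygen. These complexes pump protons, and complex V, the ATP synthase, uses the proton gradient to make ATP. Each of these complexes is built from proteins of both genomes, so nuclear and mitochondrial transcripts are made by separate transcription machineries for one product. Alveolar type II (AT2) cells, which make and secrete lung surfactant and renew the alveolar lining, are rich in mitochondria.

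All mice carried Sftpc-CreER and the Rosa26-mTmG reporter and were given 4 doses of tamoxifen, so that Cre, driven by the AT2 gene Sftpc, turned labelled cells GFP+. Control mice were Cdc42flox/+ and Cdc42 AT2 null mice were Cdc42flox/-, so the controls also carried 1 floxed allele. Cdc42 is a GTPase with roles in the actin cytoskeleton and cell polarity. The 4 groups were sham-treated controls (control sham), controls at day 21 after pneumonectomy, the removal of part of the lung (control PNX), sham-treated null mice (null sham) and null mice at day 21 after pneumonectomy (null PNX). Postnatal day 80 is given for all 4 libraries. GFP+ cells were sorted and each group is 1 10x 3′ library, with the number of mice not given, so no difference below has a replicate check and no p-value is given.

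Alveolar cells were those with Sftpc at 2% or more of their unique molecular identifiers (UMIs, 1 per captured molecule) or at least 1 Cldn4 UMI, and with Ptprc, Pecam1 and Col1a2 at 0. Cldn4 marks a transitional epithelial state. Sets of 4 values are given here with the controls first (sham, then PNX) and the null libraries after them (sham, then PNX). By library, 1669, 1972, 2630 and 1858 cells met the rule, of 2111, 2252, 3344 and 2370. Their summed depth was 8145379 to 20914459 UMIs. Median UMIs per alveolar cell were 4763, 4826, 5129 and 10595, so null PNX cells were the deepest. Cldn4 was seen in 0, 3, 69 and 998 of the alveolar cells, and 424 of those in null PNX entered by Cldn4 alone. All 10 AT2 markers were present in each library, at a summed 208237, 189134, 148434 and 123442 CPM (UMIs scaled to the total of the summed cells). Summed markers of the transitional state, Cldn4 among them, stood at 534.5, 710.8, 2634 and 12175 CPM, so the alveolar cells of the libraries differed in make-up. Summed T and NK cell markers stood at 5.81 to 14.9 CPM and the macrophage marker Marco at no more than 1.24 CPM. Summed macrophage and monocyte markers stood at 11461, 11693, 12184.5 and 6232 CPM. In cells with Ptprc and Sftpc under 2% of UMIs the same markers stood at 2798, 2259, 3300 and 4929 CPM. They were thus higher in the alveolar cells of each library, so this sum gives no measure of macrophages among them. Club cell markers were lower in control PNX (1049 CPM) than in the other libraries (4746 to 5428 CPM). Of 10023 barcodes, 54 occurred in more than 1 library, 30 of them among 8099 alveolar barcodes. Cdc42 itself was at 183.5, 225.6, 265.0 and 405.3 CPM. These are 3′ tags and the deleted exon is not given, so they check nothing about the deletion.

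A ratio is a ratio of CPM over the summed alveolar cells, with an exact 95% interval in parentheses that covers counting error only. Comparisons were limited to the 7060 genes whose level averaged 10 CPM or more across the 4 libraries. These included 92 of the 99 members: 74 of the 75 nuclear subunits, all 13 mitochondrially encoded genes, 4 of the 7 assembly factors and 1 of the other 4. Ndufaf1, Ndufaf5, Ndufaf6, Atp5s and Atp5sl stayed below this level, and Cox8b and Ndufa4l2 had at most 4 UMIs in a library. A gene was called higher or lower when its ratio lay more than 1.5-fold from that of the median gene, so the calls do not depend on the scaling of the totals. The median gene's ratio was 1.10 for control PNX over control sham, 1.13 for null sham over control sham, 1.17 for null PNX over null sham and 1.19 for null PNX over control PNX. Comparisons that share a library are not independent of each other.

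Both genomes were followed as sums first. Nuclear-encoded subunits held 2.59%, 2.86%, 2.77% and 2.95% of alveolar UMIs. The 13 mitochondrially encoded genes held 5.20%, 5.34%, 5.26% and 3.59%. The nuclear sum thus varied little, while the mitochondrial sum of null PNX lay apart from 3 libraries that were close together. The nuclear ratio was 1.11 (1.10 to 1.11) for control PNX over control sham, 1.07 (1.064 to 1.075) for null sham over control sham, 1.07 (1.06 to 1.07) for null PNX over null sham and 1.03 (1.025 to 1.035) for null PNX over control PNX, and with edgeR's TMM factors the last 3 were on the other side of 1, at 0.96, 0.919 and 0.863. Divided by the ratio of the median gene, the 4 were 1.01, 0.947, 0.915 and 0.869. The mitochondrial ratios in the same order were 1.03 (1.02 to 1.03), 1.01 (1.01 to 1.02), 0.683 (0.681 to 0.685) and 0.674 (0.671 to 0.676). With TMM factors they were 0.949, 0.91, 0.588 and 0.564, so only the first 2 changed side.

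**Figure D1:**
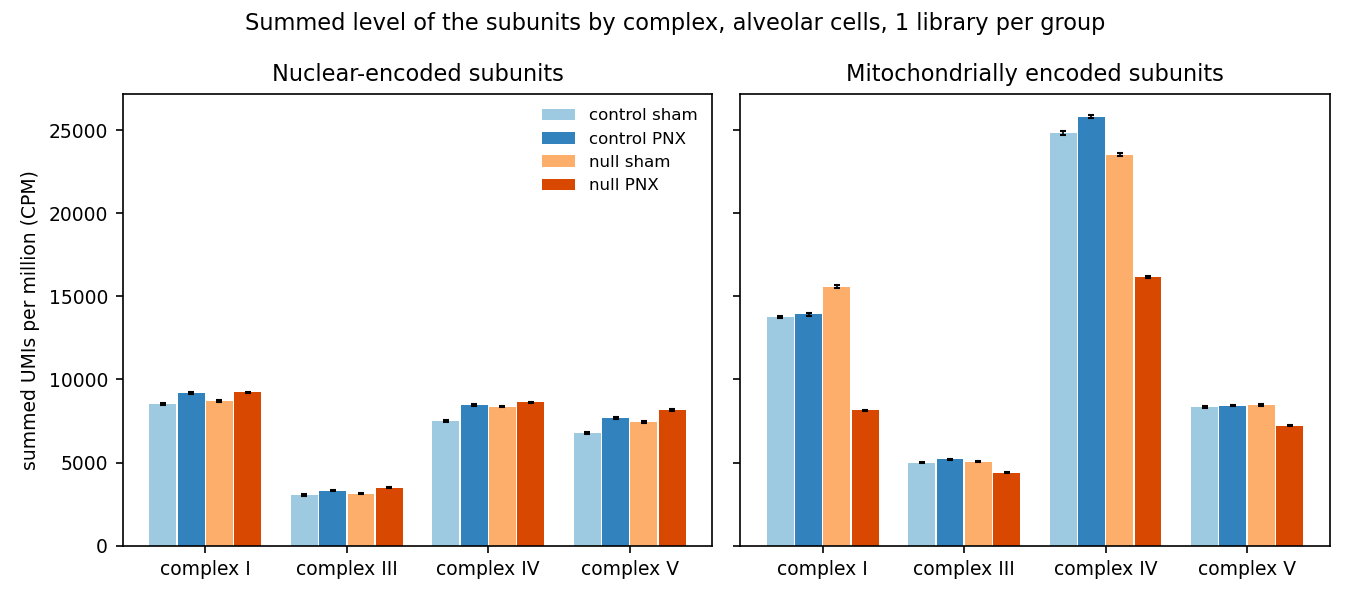
Summed CPM of the subunits of each complex (y axis) for the nuclear-encoded (left) and mitochondrially encoded genes (right), 1 bar per library, with exact 95% counting intervals as error bars. The nuclear bars of a complex lie close together in all 4 libraries, and the mitochondrial bars of complexes I and IV are lowest in null PNX, at 8152 and 16172 CPM.

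Counted over all members, control PNX over control sham gave 0 called higher and 1 called lower of 92, where 3.57% of all compared genes were called higher and 3.13% lower. Null sham over control sham gave 0 and 1, against 7.97% and 6.74% of all genes. The 1 gene in both was mt-Nd6, at 26.8, 17.9, 16.5 and 7.56 CPM from 218, 179, 240 and 158 UMIs. Null PNX over null sham gave 6 higher and 18 lower, against 16.2% and 20.1% of all genes. Of the 6, 1 (Ndufaf7) passed the CPM filter only through null PNX. By genome, 5 higher and 8 lower were among the 74 nuclear subunits, a smaller share than among all genes in each direction. The 13 mitochondrially encoded genes gave 0 higher and 10 lower. Null PNX over control PNX gave 8 higher and 24 lower, against 20.7% and 21.6%, with 7 and 13 among nuclear subunits and 0 and 11 among mitochondrial genes. Ndufaf7, which passed the filter only through null PNX, was again among the 8. The median ratio of the nuclear subunits was 1.10, 1.08, 1.13 and 1.11 in the 4 comparisons, beside 1.10, 1.13, 1.17 and 1.19 for all genes. That of the mitochondrial genes was 1.01, 1.01, 0.567 and 0.509.

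**Figure D2:**
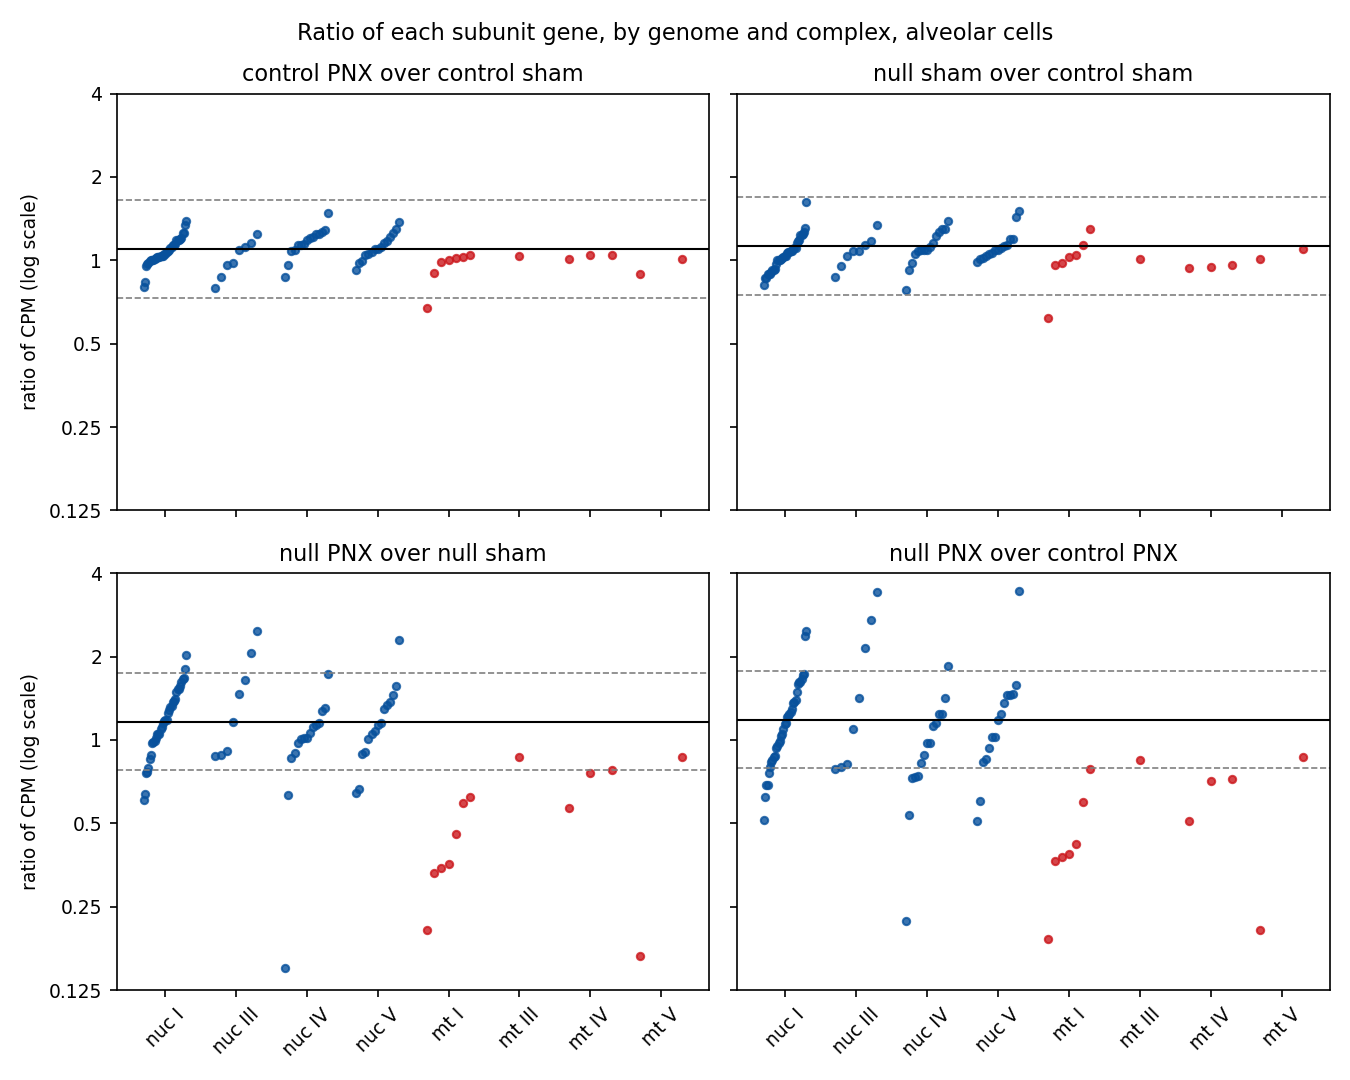
Ratio of CPM of each compared subunit gene (y axis, log scale) in the 4 comparisons, by genome and complex (x axis). The solid line is the median gene and the dashed lines are the 1.5-fold limits around it. In the panels with null PNX the nuclear genes spread to both sides, from 0.150 (Cox6a2) to 2.46 (Uqcrc1) over null sham, and the mitochondrial genes lie below the median gene.

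Among the nuclear subunits of complex I, no gene lay past the fold for control PNX or null sham over control sham. Their sum was 8526, 9213, 8712 and 9222 CPM. Against null sham, the 36 subunits in null PNX differed by part of the complex. The 7 core subunits, which carry the flavin and the iron-sulphur clusters and bind ubiquinone, all had ratios above 1 for null PNX over null sham, from 1.18 (Ndufs7) to 1.62 (Ndufs8), with a median of 1.53. Measured against the median gene, none of the 7 passed the fold. The 29 accessory subunits, which surround the core, ranged from 0.607 (Ndufa3) to 2.03 (Ndufa9), with a median of 1.10.

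Ndufa9, an accessory subunit next to the ubiquinone site, was at 39.7 and 39.9 CPM in the sham and PNX controls and at 48.8 and 98.9 CPM in the sham and PNX null libraries. Null PNX was the highest library, 2.03-fold (1.86 to 2.21) above null sham and 2.48-fold (2.23 to 2.77) above control PNX. Ndufa10, another accessory subunit, was at 85.5, 82.9, 79.0 and 142.8 CPM and was 1.81-fold (1.69 to 1.94) higher in null PNX than in null sham. It lost this call when each cell was thinned to 2500 UMIs, where it lay 0.53 above the median gene on the log2 scale. Ndufv1, the flavin-bearing core subunit that meets NADH, was at 39.4, 40.2, 63.8 and 95.01 CPM. It was the highest nuclear subunit by ratio for null sham over control sham, at 1.62 (1.42 to 1.84), short of the fold, and passed it for null PNX over control PNX at 2.36 (2.12 to 2.64).

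Some small accessory subunits of complex I lay on the other side. Of the 29 accessory subunits, 4 (13.8%) were called lower for null PNX over null sham, beside 20.1% of all genes, while 19 had ratios above 1. Ndufa3 was at 423.4, 531.8, 452.5 and 274.5 CPM, and null PNX was the lowest library, with a ratio of 0.607 (0.585 to 0.629) over null sham and 0.516 (0.497 to 0.536) over control PNX. Ndufa6, a LYR-motif protein of the matrix arm, was at 611.1, 512.1, 497.7 and 318.6 CPM, with ratios of 0.640 and 0.622. Ndufa2, the nuclear complex I subunit with the most UMIs, was at 707.5, 785.0, 708.6 and 539.1 CPM, and Ndufa1 at 209.3, 289.4, 259.7 and 199.8 CPM. Both were called lower in null PNX against null sham and against control PNX, and among cells with no Cldn4 UMI both lay short of the fold. On the log2 scale against the median gene, those values were -0.40 and -0.58 for Ndufa1 and -0.42 and -0.58 for Ndufa2, so the ones against control PNX missed the limit narrowly. Ndufa1 had one of the 3 highest nuclear ratios for control PNX over control sham, 1.38 (1.30 to 1.47), which was not past the fold. Ndufa7 was called lower for null PNX over control PNX, at 0.759, and not among cells without Cldn4.

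The complex I assembly factors, which help build the complex and are not part of it, were sparse. Of the 4 compared, all had ratios above 1 for null PNX over null sham, from 1.33 (Ndufaf4) to 2.04 (Ndufaf7). Ndufaf7, a methyltransferase, was at 10.1, 8.02, 10.3 and 21.0 CPM from 82, 80, 150 and 440 UMIs. Its ratio was 2.04 (1.69 to 2.47) for null PNX over null sham and 2.62 (2.06 to 3.37) over control PNX. The other 3 libraries averaged 9.47 CPM, so the gene passed the CPM filter only through null PNX, where it is high, and its calls carry no weight.

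In complex III the large and the small subunits lay apart. Uqcrc1 and Uqcrc2 encode the core proteins on its matrix side, and Uqcrfs1 encodes the Rieske iron-sulphur protein. Uqcrc1 was at 66.9, 64.6, 89.96 and 221.6 CPM. The controls did not differ beyond their counting intervals, and null PNX was 2.46-fold (2.32 to 2.62) above null sham and 3.43-fold (3.16 to 3.73) above control PNX. Uqcrc2 was at 59.3, 47.1, 61.7 and 127.2 CPM, so it was lowest in control PNX and 2.06-fold (1.91 to 2.23) higher in null PNX than in null sham. Uqcrfs1 was at 116.4, 101.1, 131.6 and 217.4 CPM and was called higher only against control PNX, at 2.15. The 5 small subunits had a median ratio of 0.910 for null PNX over null sham. Uqcr11, the nuclear complex III subunit with the most UMIs, was at 720.2, 830.2, 777.0 and 677.6 CPM, while Uqcrb, at 422.6, 472.7, 455.5 and 669.6 CPM, was 1.47-fold higher in null PNX than in null sham. Uqcrh, the hinge protein at the cytochrome c site, was called lower for null PNX over control PNX at 0.787, and not among cells without Cldn4.

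In complex IV the gene that stood apart was Cox6a2, the heart and skeletal muscle isoform of subunit 6a, at chr7:128205435-128206387 on the minus strand (GRCm38, GENCODE M21). It was at 202.1 and 176.4 CPM in the sham and PNX controls and at 261.3 and 39.3 CPM in the sham and PNX null libraries. Null PNX was the only low library. Cox6a2 was 6.66-fold lower in null PNX than in null sham, a ratio of 0.150 (0.139 to 0.162), and its ratio over control PNX was 0.223 (0.205 to 0.242). The share of alveolar cells with at least 1 Cox6a2 UMI was 49.8%, 42.8%, 59.9% and 22.2%, lowest in the library with the deepest cells. The ubiquitous isoform Cox6a1 was at 516.1, 584.9, 712.5 and 723.0 CPM and did not differ between null PNX and null sham beyond counting error (1.015, 0.990 to 1.041).

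Another pool held the cells with Ptprc, the pan-leukocyte gene, and Sftpc under 2% of UMIs (187, 101, 244 and 223 cells). In this pool Cox6a2 was at 36.1, 2.01, 54.4 and 91.2 CPM, with a null PNX over null sham ratio of 1.68 (1.22 to 2.34). The control PNX value rests on fewer than 3 UMIs, in the smallest of the pools, so it is no firm level. The pool is a mixture that differed between libraries, with summed neutrophil markers at 11348 CPM in null sham and 523.4 CPM in null PNX. Whether Cox6a2 differed within any cell type of the pool was not tested. Within null PNX, alveolar cells with Cldn4 had 26.6 CPM and those without Cldn4 57.6 CPM. Null sham cells without Cldn4 had 259.8 CPM, so the ratio was 0.222 among cells without Cldn4. Among alveolar cells of 5000 to 10000 UMIs, Cox6a2 was at 207.8, 185.5, 269.0 and 63.8 CPM, a ratio of 0.237 for null PNX over null sham.

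Other tissue-restricted isoforms of complex IV had few UMIs. Cox7a1, the heart and muscle isoform of subunit 7a, was at 13.1, 16.6, 14.2 and 8.94 CPM and was called lower in null PNX over null sham (0.631, 0.515 to 0.772), though not among cells without Cldn4. Its partner Cox7a2 was at 585.1, 704.8, 672.7 and 685.4 CPM, and Cox7a2l, which links complexes III and IV into supercomplexes, at 442.0, 373.8, 413.7 and 383.9 CPM. Cox4i2, known as the lung isoform of subunit 4, was at 18.2, 27.0, 17.8 and 20.03 CPM, and its ratio of 1.48 (1.21 to 1.83) was the highest nuclear one for control PNX over control sham. The common isoform Cox4i1 was at 1230.6, 1182.7, 1345.5 and 1358.3 CPM, the most UMIs among nuclear subunits of complex IV. Cox6b2, known from testis, was at 46.2, 57.4, 36.2 and 41.7 CPM, beside 660.4, 718.1, 721.7 and 806.5 CPM for Cox6b1. Cox8b, the muscle isoform of subunit 8, had 0, 0, 1 and 0 UMIs, while Cox8a was at 1068.3, 1154.6, 988.7 and 849.4 CPM. Ndufa4l2, a relative of Ndufa4 induced by low oxygen in other cells, had 0, 1, 4 and 1 UMIs, and Ndufa4 was at 579.8, 746.1, 707.4 and 923.1 CPM.

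Against control PNX, Cox6b2, Cox8a and Cox4i2 were also called lower in null PNX, at 0.727, 0.736 and 0.743. Cox8a and Cox4i2 lost this call among cells with no Cldn4 UMI. Cox5a, a small subunit on the matrix side, went the other way, at 271.9, 330.9, 353.8 and 613.4 CPM. It was called higher against control PNX (1.85) and lay 0.57 above the median gene on the log2 scale, short of the fold, after thinning. The complex IV sum was 7487, 8441, 8364 and 8616 CPM.

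In complex V, Atp5b encodes the beta subunit, which holds the catalytic sites of the F1 head. It was at 256.0, 255.0, 384.4 and 880.3 CPM. The controls were alike within counting error (0.996, 0.940 to 1.06), null sham was 1.502-fold (1.43 to 1.58) above control sham, short of the fold against the median gene, and null PNX was 2.29-fold (2.22 to 2.36) above null sham. Against control PNX it was 3.45-fold (3.31 to 3.60) higher, the highest ratio of the members beside that of Uqcrc1. Its partner in the head, the alpha subunit Atp5a1, was at 287.2, 315.9, 343.5 and 461.1 CPM and was not called. Atp5e, the small epsilon subunit of F1 and the nuclear complex V subunit with the most UMIs, was at 1006.6, 1303.0, 1039.0 and 667.1 CPM. It was called lower in null PNX, at 0.642 (0.627 to 0.657) of null sham and 0.512 (0.4998 to 0.524) of control PNX. F1 as a whole thus held members at both ends of the range of the nuclear complex V subunits in these comparisons.

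Atp5k, a membrane subunit that helps the synthase form dimers, was at 391.8, 490.7, 445.2 and 296.4 CPM and was called lower in null PNX against null sham (0.666) and control PNX (0.604). The c-ring, the rotor that protons turn, is made from 3 genes that encode one mature protein. Atp5g1 was at 228.6, 315.1, 326.9 and 371.1 CPM, with ratios of 1.38 for control PNX and 1.43 for null sham over control sham, neither past the fold. Atp5g2 was at 492.5, 519.8, 483.7 and 432.1 CPM and Atp5g3 at 243.7, 295.3, 289.7 and 303.5 CPM, so Atp5g1 was lowest in control sham while Atp5g2 was lowest in null PNX. The 4 stalk subunits all had ratios above 1 for null PNX over null sham, from 1.08 to 1.56, and none was called.

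The promoters are shown for members called higher and lower in null PNX, to set beside their ratios the sequence around the gene start and the motifs that respiratory genes often share. They are from RefSeq (GRCm38.p6), 250 bases before to 50 after the start, 5′ to 3′ on the gene's strand, with motif matches in capitals. Atp5b is at chr10:128083057-128083356 (plus strand), Uqcrc1 at chr9:108936398-108936697 (plus), Ndufa9 at chr6:126849095-126849394 (minus), Atp5k at chr5:108434350-108434649 (minus) and Atp5e at chr2:174464052-174464351 (minus).
Atp5b: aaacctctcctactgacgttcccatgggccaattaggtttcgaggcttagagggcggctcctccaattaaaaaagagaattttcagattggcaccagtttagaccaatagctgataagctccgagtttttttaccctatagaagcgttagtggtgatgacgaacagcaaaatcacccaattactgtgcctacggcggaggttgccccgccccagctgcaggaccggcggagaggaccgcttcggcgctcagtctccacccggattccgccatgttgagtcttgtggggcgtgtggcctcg
Uqcrc1: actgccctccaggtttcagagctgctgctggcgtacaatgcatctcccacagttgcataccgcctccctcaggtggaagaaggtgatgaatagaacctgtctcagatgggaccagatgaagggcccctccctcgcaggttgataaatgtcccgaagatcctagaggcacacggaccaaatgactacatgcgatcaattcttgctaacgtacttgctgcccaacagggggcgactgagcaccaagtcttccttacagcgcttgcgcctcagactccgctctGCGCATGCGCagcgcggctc
Ndufa9: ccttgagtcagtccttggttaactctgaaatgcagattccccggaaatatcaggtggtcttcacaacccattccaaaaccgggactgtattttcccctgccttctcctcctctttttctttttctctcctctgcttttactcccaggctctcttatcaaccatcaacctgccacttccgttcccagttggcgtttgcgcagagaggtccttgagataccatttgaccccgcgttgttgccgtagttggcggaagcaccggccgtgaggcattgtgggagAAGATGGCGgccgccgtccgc
Atp5k: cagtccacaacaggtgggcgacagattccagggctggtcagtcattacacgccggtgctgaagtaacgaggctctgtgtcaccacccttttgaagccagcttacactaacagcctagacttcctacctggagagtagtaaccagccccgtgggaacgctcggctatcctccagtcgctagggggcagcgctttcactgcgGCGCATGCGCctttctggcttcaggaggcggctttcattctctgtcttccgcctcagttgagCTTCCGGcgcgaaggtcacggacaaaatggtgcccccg
Atp5e: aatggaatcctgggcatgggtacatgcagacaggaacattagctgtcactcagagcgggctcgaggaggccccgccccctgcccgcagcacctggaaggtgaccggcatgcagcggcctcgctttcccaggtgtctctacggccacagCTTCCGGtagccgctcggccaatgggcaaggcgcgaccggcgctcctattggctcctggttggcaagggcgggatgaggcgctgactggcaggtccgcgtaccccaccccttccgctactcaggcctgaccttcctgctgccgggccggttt

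The motifs searched on both strands were the cores of NRF1 (GCGCATGC), of ETS factors (CCGGAAG) and of YY1 (AAGATGGCG), each bound by a factor known to act on respiratory genes. The NRF1 core overlaps its own reverse complement, so one longer stretch can count on both strands. Promoters were matched for 72 of the 86 nuclear members. The NRF1 core was in 11 of them, 15.3%, beside 3.05% of all 27025 genes with a promoter and 3.94% of the 17492 protein-coding ones. A gene counted if any of its promoters held the core. The ETS core was in 15, 20.8%, beside 9.93% and 12.95%, and the YY1 core in 8, 11.1%, beside 1.64% and 2.14%. Motifs stood in promoters of members called higher and of members called lower. Uqcrc1 held the NRF1 core at base 30 after the start and Ndufa9 the YY1 core at base 29, while Atp5b held none of the 3. Atp5k, called lower, held the NRF1 core at -50 and the ETS core at base 12, and Atp5e held the ETS core at -102. Those not matched included Ndufs1, Ndufa2, Ndufb9, Ndufaf6, Uqcrc2, Uqcrb, Uqcrq, Cox4i1, Cox4i2, Cox6a2, Cox6c, Atp5a1 and Ndufa4l2.

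The mitochondrial genome encodes proton-pumping subunits of complexes I, III and IV and the a subunit of the synthase. Its genes are transcribed from few promoters as long precursors and then cut apart. In null PNX the 13 genes did not shift by one factor. The complex I sum was 13756, 13915, 15592 and 8152 CPM, a ratio of 0.523 (0.519 to 0.526) for null PNX over null sham. Complex IV stood at 24833, 25814, 23536 and 16172 CPM, a ratio of 0.687. Complexes III and V were nearer to 1, at 0.869 and 0.853.

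The extremes were mt-Atp8 and mt-Nd3. mt-Atp8, a small synthase subunit, was at 152.5, 135.5, 167.1 and 27.8 CPM, with a ratio of 0.167 (0.152 to 0.182) for null PNX over null sham. mt-Nd3, which holds a loop near the ubiquinone site of complex I, was at 1064.3, 1111.5, 1024.9 and 212.1 CPM, with a ratio of 0.207. In both, null PNX was the 1 low library. mt-Nd2, mt-Nd4l and mt-Nd5, all membrane subunits of complex I, followed with 2712.6, 2674.3, 2832.3 and 979.3 CPM, 281.0, 281.2, 320.2 and 106.1 CPM, and 534.5, 480.4, 524.7 and 186.9 CPM. Their ratios were 0.346, 0.331 and 0.356.

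The other complex I genes moved less. mt-Nd4 was at 3638.0, 3714.2, 3745.8 and 2214.6 CPM (ratio 0.591) and mt-Nd1 at 5498.5, 5635.4, 7127.7 and 4445.3 CPM (0.624). mt-Nd1 was the mitochondrial gene with the highest ratio for null sham over control sham, 1.30 (1.28 to 1.31), which was not past the fold. mt-Co1, the catalytic subunit of complex IV, was at 10348.7, 10859.4, 9739.7 and 5521.9 CPM (0.567), while mt-Co2 and mt-Co3 were at 4478.2, 4532.0, 4298.1 and 3265.3 CPM (0.760) and at 10005.7, 10422.9, 9498.0 and 7385.1 CPM (0.778). mt-Cytb, the haem-bearing subunit of complex III, was at 4997.7, 5188.4, 5051.8 and 4390.5 CPM (0.869), and mt-Atp6, the synthase subunit that forms the proton path, at 8209.3, 8297.9, 8296.8 and 7194.7 CPM (0.867). mt-Cytb and mt-Atp6 were not called against either library, and mt-Co3 was called against control PNX alone (0.709). mt-Nd6, from the other strand, was called in all 4 comparisons, with 0.457 (0.372 to 0.561) for null PNX over null sham. Reads of mt-Atp8, mt-Atp6 and mt-Co3, of mt-Nd4l and mt-Nd4, and of mt-Nd5 and mt-Nd6 may be shared where these genes overlap.

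The level of the whole mitochondrial set in null PNX depended on how cells were weighted. By median cell it held 4.89%, 5.10%, 5.03% and 3.03% of UMIs. Between percentiles 5 and 95, cells of null PNX ran from 1.39% to 16.6% and those of null sham from 2.75% to 15.3%. The nuclear subunits held 2.57%, 2.83%, 2.73% and 2.94% in the median cell. In UMIs per cell the median was 239, 249, 273 and 362 for mitochondrial genes and 126, 141, 145 and 314 for nuclear subunits, so the median null PNX cell gave more UMIs of both. Mitochondrial UMIs per nuclear subunit UMI were 2.01, 1.86, 1.90 and 1.22.

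Depth of the cell went with this share in every library. In control sham the mitochondrial share was 12.8% in cells under 2500 UMIs, 5.76% at 2500 to 5000, 4.40% at 5000 to 10000 and 3.46% above. In null PNX no alveolar cell was under 2500 UMIs, and the share was 12.2% at 2500 to 5000, 4.495% at 5000 to 10000 and 2.71% above, where 1008 of its 1858 cells lay. At 5000 to 10000 UMIs the 4 libraries were close, at 4.40%, 4.63%, 4.48% and 4.495% (722, 886, 1235 and 534 cells), although the median cell of null PNX was lower (3.66%) than the others (4.20% to 4.47%). With each cell thinned to 2500 UMIs, which leaves out 183, 162, 255 and 0 shallower cells, the share was 5.16%, 5.36%, 5.39% and 5.00%, and the null PNX over null sham ratio was 0.928 in place of 0.683. The depth of the cells thus differs with the group, and how much of the lower sum goes with each cannot be told apart in these libraries.

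**Figure D3:**
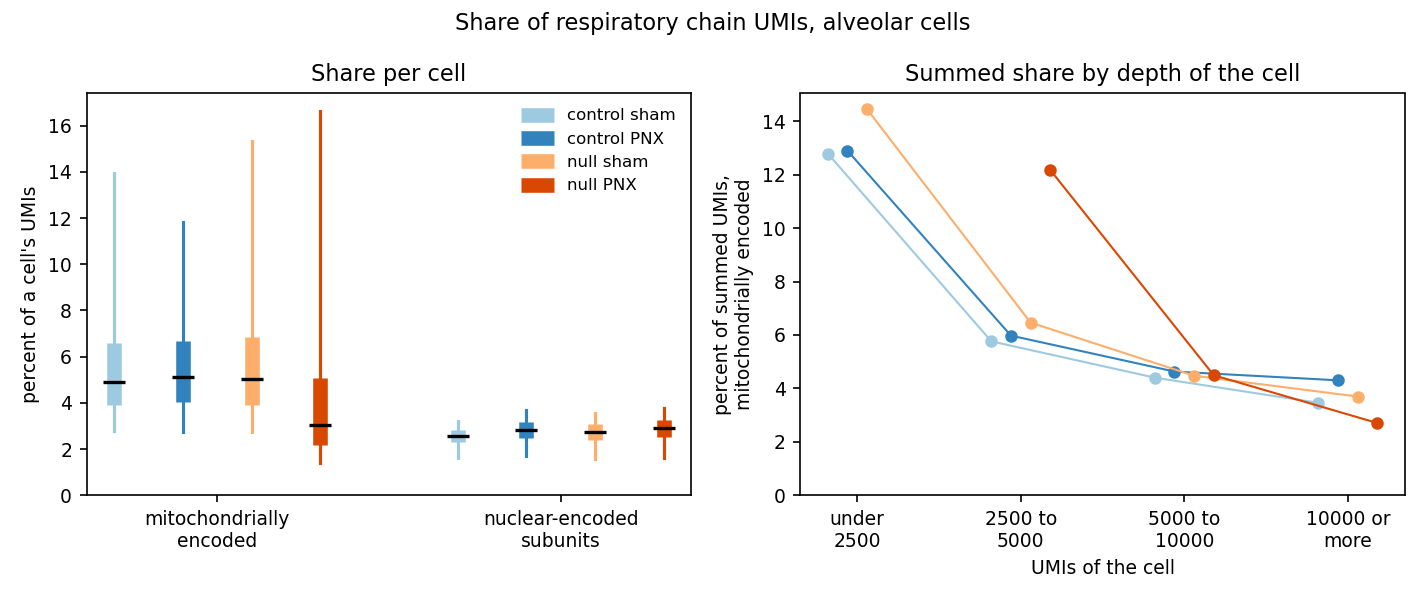
Left, percent of each alveolar cell's UMIs that are mitochondrially encoded or from nuclear subunits, with the median (black bar), quartiles (thick line) and the percentiles 5 to 95 (thin line) per library. Right, percent of summed UMIs that are mitochondrially encoded (y axis) by the cell's UMI count (x axis), 1 line per library; at 5000 to 10000 UMIs the libraries lie between 4.40% and 4.63%.

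The uneven pattern within the set did not go away with weighting. In cells of 5000 to 10000 UMIs, null PNX over null sham was 0.231 for mt-Atp8, 0.324 for mt-Nd3, 0.512 for mt-Nd2, 0.518 for mt-Nd4l and 0.538 for mt-Nd5. In the same cells it was 1.23 for mt-Cytb, 1.22 for mt-Atp6, 1.15 for mt-Co3 and 1.11 for mt-Co2, which are above 1 in contrast to the sums over all cells. mt-Nd1, mt-Nd4 and mt-Co1 were at 0.924, 0.872 and 0.882. After thinning, mt-Nd1, mt-Nd4 and mt-Co2 lost their calls in both comparisons and mt-Co3 its 1 call, while mt-Nd2, mt-Nd3, mt-Nd4l, mt-Nd5, mt-Nd6, mt-Co1 and mt-Atp8 stayed past the fold in both.

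As a share of mitochondrial UMIs, mt-Nd3 made up 2.05%, 2.08%, 1.95% and 0.590%, and mt-Nd2 made up 5.22%, 5.01%, 5.38% and 2.725%. mt-Atp6 made up 15.8%, 15.55%, 15.8% and 20.02%. Null PNX stood apart from 3 near-equal libraries in each. In the cells with Ptprc, mt-Nd3 and mt-Nd2 were low in null PNX too, while mt-Atp6 was nearly equal, at 19.1%, 19.3%, 19.3% and 20.2%. There mt-Nd3 made up 1.55%, 1.84%, 1.46% and 0.585% and mt-Nd2 3.72%, 3.78%, 3.78% and 2.38%. mt-Atp8 was at 29.2, 48.3, 68.7 and 20.3 CPM in those cells, with 0.295 (0.184 to 0.463) for null PNX over null sham. mt-Nd1 was again highest in null sham, at 14.3% of mitochondrial UMIs in cells with Ptprc and 13.5% in alveolar cells.

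**Figure D4:**
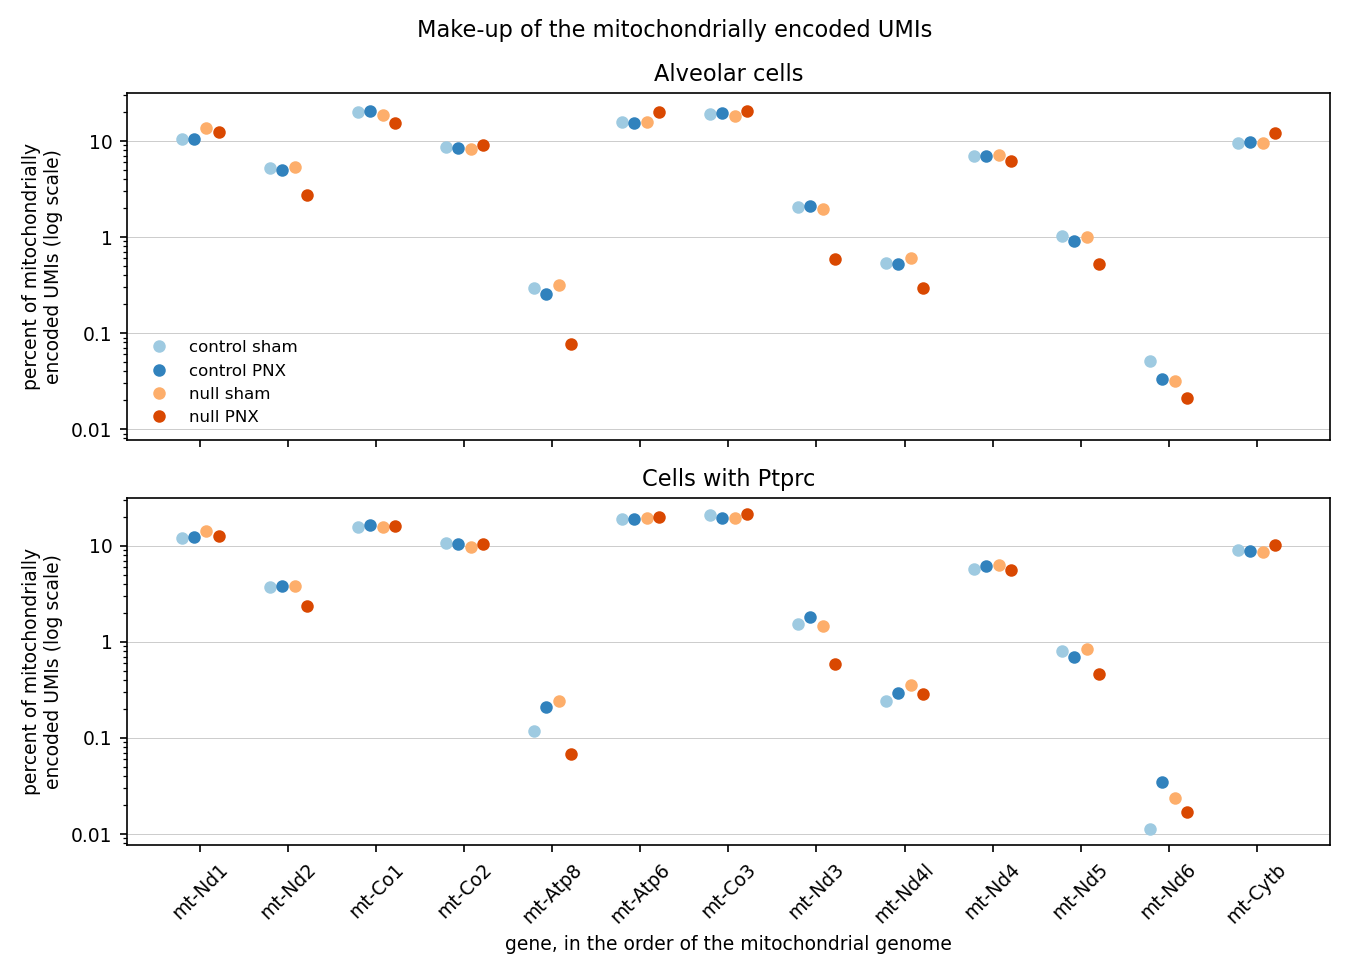
Percent of mitochondrially encoded UMIs from each of the 13 genes (y axis, log scale) in their order on the mitochondrial genome, per library, in alveolar cells (top) and cells with Ptprc (bottom). The null PNX point is low for mt-Nd2, mt-Atp8, mt-Nd3 and mt-Nd5 in both kinds of cell.

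The sums in the cells with Ptprc went another way. Mitochondrial genes held 2.49%, 2.31%, 2.81% and 2.97% of their UMIs, and null PNX over null sham was 1.06 (1.04 to 1.07), where alveolar cells had 0.683. Nuclear subunits held 2.01%, 1.95%, 2.09% and 2.60%, a ratio of 1.24 (1.22 to 1.26). Uqcrc1 (1.53), Atp5b (1.47) and Ndufa9 (2.14) were above 1 in these cells too, and Ndufa6 (0.753), Atp5e (0.880) and Atp5k (0.847) below 1, each with an interval on one side of 1. Ndufa3 (0.969, 0.812 to 1.16) and Uqcrc2 (1.21, 0.948 to 1.55) did not differ beyond counting error. These cells are a mixture that differed between libraries: summed neutrophil markers were at 7631, 14219, 11348 and 523.4 CPM, and median UMIs per cell were 3060, 3156, 3244.5 and 4385. They also held 4841 to 8375 CPM of Sftpc, an AT2 gene. Summed markers of the transitional state stood at 204.3, 156.9, 1297 and 6742 CPM in them, by far the most in null PNX. These cells are thus not free of alveolar RNA, least of all in null PNX, and its part in their values was not tested.

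Nuclear subunits with long transcripts and those with short ones separated in null PNX. Over the 74 subunits, Spearman's rho between median annotated transcript length and the null PNX over null sham ratio was 0.61, and 0.65 for the ratio over control PNX. These are descriptions across genes, which are not independent and share both libraries. For control PNX and null sham over control sham rho was -0.37 and 0.17. Subunits with transcripts under 600 bases (27 genes, such as Ndufa3, Atp5e and Atp5k) had a median null PNX over null sham ratio of 0.903, those of 600 to 1200 bases (29 genes) of 1.12 and those of 1200 bases or more (18 genes, such as Uqcrc1, Uqcrc2 and Atp5b) of 1.53. Over all 6786 genes with a length rho was of the other sign, -0.31. Among genes outside the set, the medians were 0.921 for 133 short ones and 1.15 for 5677 long ones. In cells of 5000 to 10000 UMIs the 3 medians for the subunits were 0.910, 1.08 and 1.38, and in cells with Ptprc they were 1.19, 1.28 and 1.41. Cox6a2, of 680 bases, was not one of the short genes.

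**Figure D5:**
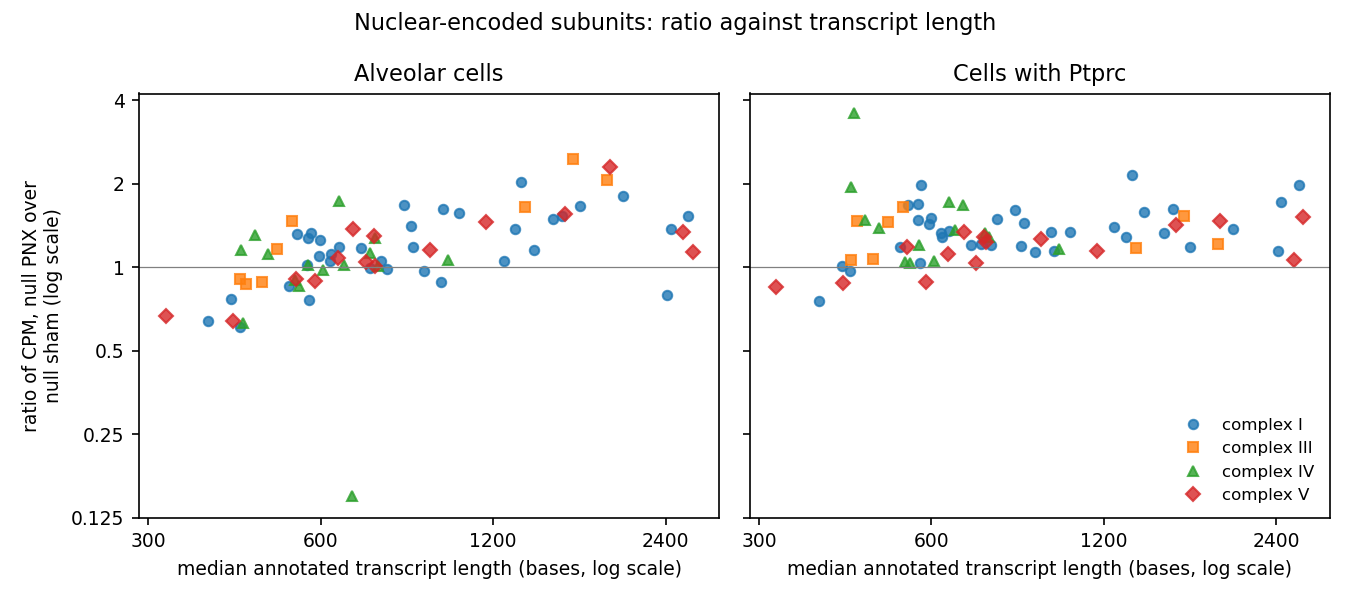
Ratio of CPM for null PNX over null sham (y axis, log scale) against median annotated transcript length (x axis, bases, log scale) for the nuclear subunits, by complex, in alveolar cells (left) and cells with Ptprc (right). In alveolar cells long transcripts lie higher than short ones, and Cox6a2 is the single point at 0.150.

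Within null PNX, 998 cells with Cldn4 and 860 without were compared inside the 1 library, as a description. Nuclear subunits held 2.86% of UMIs with Cldn4 and 3.07% without, and mitochondrial genes 3.14% and 4.25%. Thinned to 2500 UMIs, these were 2.76% and 2.95%, and 4.19% and 5.94%. Cells with Cldn4 were deeper (median 11812.5 and 9628.5 UMIs). Uqcrc2 was at 139.7 CPM with Cldn4 and 109.1 without, Uqcrc1 at 233.8 and 204.1, and Atp5b at 938.0 and 797.0. Ndufa3 was at 251.3 and 307.9 and Cox7a1 at 7.04 and 11.7. Of the 6 nuclear members called higher for null PNX over null sham, 5 had more CPM with Cldn4 than without, and Ndufaf7 was at 20.7 and 21.5 CPM. All 8 nuclear members called lower had less with Cldn4, as did 9 of the 10 mitochondrial ones, the exception being mt-Nd6 at 7.93 and 7.01 CPM. Most nuclear members had less with Cldn4, called or not, such as Cox6c (962.9 and 1239.0 CPM), which was not called. Among all mitochondrially encoded genes mt-Nd6 alone had more. The uncalled mt-Cytb (3957.9 and 5014.6 CPM) and mt-Atp6 (6439.2 and 8285.0 CPM) thus had less too. Having less with Cldn4 is therefore not particular to the members called lower. Cells with Cldn4 are also part of the null PNX sum that set the calls, so these counts are not independent of the calls. Of the 8 called higher over control PNX, Ndufaf7 and Ndufv1 (93.7 and 96.95 CPM) had slightly less with Cldn4. Among cells with no Cldn4, null PNX over null sham was still 2.11 for Atp5b, 2.31 for Uqcrc1 and 1.94 for Ndufa9, and 0.674 for Ndufa3 and 0.684 for Atp5e.

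Genes that work with the respiratory chain were followed by role, from lists drawn up with earlier results of these data known. Their counts are set against the 16.2% of all compared genes called higher and 20.1% called lower for null PNX over null sham, and the 20.7% and 21.6% over control PNX. In complex II, cytochrome c and cytochrome c1, a complex III subunit outside the symbol rule, 4 of 6 genes (66.7%) were called higher for null PNX over null sham and 0 lower: Sdhb (2.11), Cyc1 (2.04), Sdhd (1.86) and Cycs (1.77). Sdhb, the iron-sulphur subunit of complex II, was at 82.6, 79.0, 87.1 and 184.0 CPM, and Cyc1 at 94.2, 95.2, 110.7 and 225.8 CPM. The same 4 were called higher against control PNX, and none of the 6 in the other comparisons. Of 7 carriers and channels, Slc25a4 (2.46), an ADP/ATP exchanger, and the outer-membrane channel Vdac3 (2.26) were called higher and the uncoupling protein Ucp2 (0.717) lower, shares of 28.6% and 14.3%. Slc25a4 was at 120.6, 122.7, 147.5 and 362.7 CPM. Ucp2 was at 245.5, 345.2, 512.6 and 367.3 CPM and was called higher in null sham over control sham (2.09). Against control PNX, 5 of the 7 were called higher, among them Slc25a4 (2.96), Vdac3 (2.58), Vdac1 (2.21) and Slc25a5 (1.96).

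Of 17 genes of pyruvate dehydrogenase and the citric acid cycle, 3 were called higher for null PNX over null sham (Mdh2 at 2.03, Idh3g at 1.79 and Fh1 at 1.76) and 1 lower (Ogdh at 0.552). The share called higher, 17.6%, was near that of all genes. Against control PNX, 5 were higher and 1 lower, led by Mdh2 (2.41). For null sham over control sham only Idh2 was called, lower (0.6945). Mitochondrial ribosomal proteins, which translate the 13 mitochondrial transcripts, were called higher in 19 (26.0%) and lower in 1 of 73 (1.37%, Mrpl52 at 0.750), with a median ratio of 1.49 beside 1.17 for all genes. Mrpl16 was at 16.45, 16.5, 15.8 and 44.75 CPM (2.83). Of the 19, Mrps31 and Mrpl1 passed the CPM filter only through null PNX, so their calls carry no weight. Against control PNX 20 (27.4%) were called higher, among them Mrps31 and Mrpl1, whose calls carry no weight here for the same reason. Called lower were 3 (4.11%): Mrps9 at 0.467, Mrps6 at 0.643 and Mrpl14 at 0.7425. Mrps9 was also lower in null sham over control sham (0.427), with 80.9, 76.9, 34.55 and 35.9 CPM, so both null libraries were below both controls. Mrps6 was called lower for null sham over control sham too, and higher for control PNX over control sham (1.71).

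Among 16 complex IV assembly genes, 0 were called higher and 3 lower for null PNX over null sham: Cox16 (0.330), the copper chaperone Cox17 (0.501) and Pet100 (0.731). The share called lower, 18.8%, was near that of all genes. Cox17 was at 263.2, 291.4, 254.5 and 127.4 CPM. Cox16 was at 11.5, 22.8, 30.7 and 10.1 CPM and, with the copper chaperone Sco2, was called higher for control PNX and for null sham over control sham. Of 3 other complex I assembly genes, Tmem126b (1.82) and Tmem126a (1.77) were called higher for null PNX over null sham. Of 7 genes for assembly and control of complexes III and V, Atpaf2 (1.81), a synthase assembly factor, was called higher for null PNX over null sham. Against control PNX, Ttc19 (1.97) was called higher and Usmg5 (0.737) lower. Ttc19 (2.20) was also called higher for null sham over control sham, 14.3% of the 7 beside 7.97% of all genes. Of 6 genes that copy and express mitochondrial DNA, Polg (0.563), the DNA polymerase, was called lower. Mterf3 (1.76) and Lrpprc (0.763) passed the CPM filter only through the library in which they are high, null PNX and null sham, so their calls carry no weight. Of 5 regulators of mitochondrial biogenesis, none was called in null PNX and Esrra (1.72) was called higher for null sham over control sham.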

How the data were processed

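GFP+ sorted lung cells of 4 groups were measured by 10x 3′ single-cell RNA sequencing, 1 library per group. The authors deposited 1 table of raw UMI counts per gene and cell, 17117 genes by 10077 cells. Cell Ranger 2.1.0, Seurat 2.3.4 and mm10 are named, without a role, per the submitters' processing notes. The ending of each barcode gave its library, per the labels. Counts were summed over alveolar cells and scaled to CPM with Python 3.11.15, pandas 2.3.3 and scipy 1.17.1. Levels have exact Poisson and ratios exact binomial 95% intervals, and with 1 library per group no test was possible. No cells were removed as doublets and no further filter was set, so 31, 37, 66 and 56 alveolar cells over 20% mitochondrial UMIs stayed in. A count of 3 UMIs, the most that 0 allows, is 0.143 to 0.368 CPM. TMM factors came from edgeR 4.0.16. The scripts were tested on simulated data.

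The members, the gene lists, the markers and the fold were chosen with earlier results of these data known. Named were all mitochondrial genes, the 3 highest and 3 lowest nuclear subunits of each comparison, the subunit with the most UMIs per complex, the isoform groups, assembly factors past the fold and at most 4 listed genes past the fold per list and comparison. Members named beyond this rule were chosen after their values were seen. 1 item that this rule names is not reported here. Alternatives changed the fold, the CPM filter, the cells, the weighting and the scaling. The limit of 10% mitochondrial UMIs and the depth classes were added after the data were seen. Transcript lengths and positions are from GENCODE M21 (GRCm38). Some members, Ndufa2, Ndufa3 and Cox5a among them, overlap measured genes on the other strand. Whether counting used strand is not stated, so their UMIs are uncertain.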

Additional observations from a re-analysis of the deposited data

Results flagged for a closer look

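With 1 library per group no difference between effects was tested. Listed here are the members, and the summed mitochondrial genes, whose ratio lay on one side of 1 in one genotype or condition and on the other in the second, with the counting intervals of both clear of 1 and the gene called in the comparison that holds null PNX. The cause was not tested. The side of 1 moves with the scaling. With TMM factors the mitochondrial sum was below 1 in all 4 comparisons, and of the genes 6 of 10 in the first set and 5 of 10 in the second still had ratios on opposite sides.

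For pneumonectomy, the ratios by CPM lay on opposite sides of 1 in the genotypes for the sum and 10 genes. In null mice the PNX over sham ratio was 0.683 for the mitochondrial sum, 0.769 for Ndufa1, 0.761 for Ndufa2, 0.607 for Ndufa3, 0.642 for Atp5e and 0.666 for Atp5k. Among mitochondrial genes it was 0.624 for mt-Nd1, 0.207 for mt-Nd3, 0.591 for mt-Nd4 and 0.567 for mt-Co1. In controls each of these was above 1, from 1.02 (mt-Nd4) to 1.38 (Ndufa1). Uqcrc2 was the reverse, at 2.06 in null mice and 0.794 in controls. With TMM factors the control ratios of mt-Nd1, mt-Nd3, mt-Nd4 and mt-Co1 were 0.947, 0.965, 0.944 and 0.9695, on the same side as in null mice.

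For genotype, the ratios by CPM lay on opposite sides of 1 in the conditions for the sum and 10 genes. After PNX the null over control ratio was 0.674 for the mitochondrial sum, 0.690 for Ndufa1, 0.516 for Ndufa3, 0.223 for Cox6a2, 0.512 for Atp5e and 0.604 for Atp5k. For mitochondrial genes it was 0.789 for mt-Nd1, 0.366 for mt-Nd2, 0.596 for mt-Nd4, 0.377 for mt-Nd4l and 0.205 for mt-Atp8. Between the sham libraries each of these was above 1, from 1.01 (the sum) to 1.30 (mt-Nd1). With TMM factors the sham ratios of Ndufa3, Atp5e, mt-Nd2, mt-Nd4 and mt-Atp8 were 0.960, 0.927, 0.938, 0.925 and 0.984, on the same side as after PNX.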

How the results depend on the processing

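Ratios are given in the order control PNX over control sham, null sham over control sham, null PNX over null sham and null PNX over control PNX. Members past the fold numbered 1, 1, 24 and 32. With a limit 25% from the median gene they numbered 11, 13, 51 and 56. With no CPM filter the first 2 were 3 and 4, and with at least 50 CPM both were 0. The nuclear sum ratios (1.11, 1.07, 1.07 and 1.03) were 1.02, 0.96, 0.919 and 0.863 with TMM factors. The last 2 were 1.05 and 1.01 with mitochondrial UMIs out of the total, 1.11 and 1.07 in cells without Cldn4, 1.03 and 0.988 thinned to 2500 UMIs, and 1.06 and 1.02 as a mean over cells. With at most 10% mitochondrial UMIs, a limit chosen after seeing the data, null PNX over null sham was 1.06. The mitochondrial sum ratios (1.03, 1.01, 0.683 and 0.674) were 0.949, 0.91, 0.588 and 0.564 with TMM factors, 1.04, 1.05, 0.928 and 0.933 thinned, 0.993, 1.03, 0.793 and 0.825 as a mean over cells, and 1.04, 0.992, 0.636 and 0.604 with at most 10% mitochondrial UMIs. With at most 20% the last 3 were 1.00, 0.66 and 0.646, and without Cldn4 cells 1.02, 0.798 and 0.795. With mitochondrial UMIs out of the total the last 2 were 0.671 and 0.661. The last 2 mitochondrial ratios were below 1 under each of these. Other causes of these shifts were not tested. Of 58 gene values past the fold, 58 stayed past it with TMM factors and without the highest cell, 49 after thinning and 45 without Cldn4 cells. No paired analysis was possible because each group has 1 library, and for the same reason no replicate could be left out.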
